A study of Mus musculus with 18 samples.

Results

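The 8 genes described here belong to interleukin 4 and interleukin 13 signalling, and their transcripts were measured in nasal mucosa of mice: the cytokine gene Il4, the receptor genes Il4ra, Il13ra1, Il13ra2 and Il2rg, the transcription factor genes Stat6 and Gata3, and the inhibitor gene Socs1. They were taken by gene name, not by measured level, and all 8 were found among the 54532 genes of the count table. All 8 also passed the filter on low counts, which kept 18291 genes. Poly(A) RNA was read in 18 libraries, 6 each from the groups C10, CRS and CON. CRS stands for a papain model of chronic rhinosinusitis, in which mice had nasal doses of the protease papain (20 µg in 20 µL a dose) on days 0 to 2 and again on days 7 to 11. C10 stands for a compound, an inhibitor of the DNA repair and redox protein APE1 by the series title, instilled at 10 mg/mL, 10 µL in each nostril, once daily for 10 days from the first papain dose. The C10 group was taken to be papain mice given the compound, because the protocol describes the drug as given to CRS mice. CON is the control group, and its treatment is not described in the labels. Strain, sex, age, a vehicle for the CRS group and whether each library is a separate mouse are likewise not described, so p-values measure the spread between libraries, which may be partly technical. Library totals ran between 15883573 and 18128186 counts in C10, between 16531779 and 17523368 in CRS and between 16510920 and 18433866 in CON. Levels below are CPM, counts scaled to the library's size with edgeR's TMM factors, unless FPKM, which also divides by gene length, is named.

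Interleukin 4 and interleukin 13 are the cytokines of type 2 inflammation, made by T helper 2 cells, innate lymphoid cells, mast cells and basophils. The receptor chain IL-4Rα, from Il4ra, pairs either with the common gamma chain, from Il2rg, mainly on blood-derived cells, or with IL-13Rα1, from Il13ra1, mainly on epithelium, fibroblasts and smooth muscle. Only the second pair also binds interleukin 13. Both pairs act through Janus kinases that phosphorylate STAT6, which then enters the nucleus and switches on genes for mucus, chemokines and alternative macrophage activation. IL-13Rα2 binds interleukin 13 tightly and is known mainly as a decoy. SOCS1 blocks Janus kinases, and GATA3 directs T helper 2 and group 2 innate lymphoid cells. In the airway lining this pathway is known for goblet cell mucus and for recruiting eosinophils.

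The promoter windows shown here are those of Il4ra and Stat6, whose levels moved together across libraries, of Il13ra1 and Il13ra2, which encode receptors of the same ligand at very different levels, and of the start sites of Il4. Each is the 250 bases upstream of a start site in the RefSeq promoter table of GRCm38.p6, written 5′ to 3′ on the gene's strand; all 8 genes matched that table. Capitals mark matches, on either strand, to a searched motif. The STAT6-type motif was TTCNNNNGAA, and the motif of other STATs was TTCNNNGAA. For GATA factors the letters AGATAA were searched, and for the GC box of promoters GGGCGG. The Il4ra window lies at chr7:125552021-125552270 on the plus strand and the Stat6 window at chr10:127642736-127642985 on the plus strand. In the count table Il4ra begins at 125552120, before that RefSeq start, so the later part of its window lies inside the gene as counted. The Il13ra1 window lies at chrX:36111858-36112107 on the plus strand and the Il13ra2 window at chrX:147429193-147429442 on the minus strand. For Il4, on the minus strand, the outer start has the window chr11:53618666-53618915 and the inner start chr11:53617339-53617588.
Il4ra: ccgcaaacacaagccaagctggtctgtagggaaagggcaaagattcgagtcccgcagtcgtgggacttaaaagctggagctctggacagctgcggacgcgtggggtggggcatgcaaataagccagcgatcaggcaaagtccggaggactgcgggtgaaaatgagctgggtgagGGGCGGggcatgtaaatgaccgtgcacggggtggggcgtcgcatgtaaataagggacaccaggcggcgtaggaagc
Stat6: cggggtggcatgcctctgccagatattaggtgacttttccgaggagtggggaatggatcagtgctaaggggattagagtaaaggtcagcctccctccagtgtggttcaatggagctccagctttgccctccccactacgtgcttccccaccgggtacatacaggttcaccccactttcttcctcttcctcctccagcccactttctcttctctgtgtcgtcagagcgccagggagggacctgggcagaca
Il13ra1: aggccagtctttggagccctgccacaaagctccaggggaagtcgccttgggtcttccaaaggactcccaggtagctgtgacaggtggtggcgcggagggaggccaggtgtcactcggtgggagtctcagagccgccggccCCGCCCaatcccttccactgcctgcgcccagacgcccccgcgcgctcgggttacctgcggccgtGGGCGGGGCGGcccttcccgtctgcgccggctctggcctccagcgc
Il13ra2: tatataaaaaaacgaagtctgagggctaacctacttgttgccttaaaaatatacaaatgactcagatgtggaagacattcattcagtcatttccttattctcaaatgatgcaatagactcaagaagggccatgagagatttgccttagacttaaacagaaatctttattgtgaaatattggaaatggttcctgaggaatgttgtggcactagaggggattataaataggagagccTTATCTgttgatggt
Il4 outer start: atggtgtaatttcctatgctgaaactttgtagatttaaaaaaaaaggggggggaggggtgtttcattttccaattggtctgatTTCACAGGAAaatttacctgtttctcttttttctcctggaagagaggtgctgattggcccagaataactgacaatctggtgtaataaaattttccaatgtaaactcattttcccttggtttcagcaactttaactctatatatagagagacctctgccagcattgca
Il4 inner start: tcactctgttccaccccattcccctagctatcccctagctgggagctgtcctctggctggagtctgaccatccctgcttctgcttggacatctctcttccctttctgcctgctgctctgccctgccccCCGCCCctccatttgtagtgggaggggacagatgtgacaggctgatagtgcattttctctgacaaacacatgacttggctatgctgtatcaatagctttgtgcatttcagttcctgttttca

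The STAT6-type motif was found once in these 6 windows, at the outer start of Il4, 167 to 158 bases before the start, and 5.85% of 32851 promoter windows of the same length hold it. A GC box was found in the windows of Il4ra, of Il13ra1 (3 matches, 2 of them overlapping) and of the inner Il4 start, against 32.7% of all windows. The GATA motif was found once, in the Il13ra2 window, on the opposite strand, against 9.99% of all windows. No searched motif was found in the Stat6 window. G and C made up 70.8% of the Il13ra1 window and 36.0% of the Il13ra2 window, against a median of 52.4% over all windows. These matches describe letters only and are not evidence of binding.

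Per gene length, Il13ra1 was the most abundant of the 8 transcripts, at a mean of 29.6 FPKM over the 18 libraries. Stat6 followed at 19.3 FPKM and Il4ra at 11.1 FPKM, and this order held in 18 of 18 libraries. Il2rg averaged 7.45 FPKM and was below Il4ra in 17 of 18 libraries. Il4 averaged 3.91 FPKM and was below Il2rg in 15 of 18. Socs1 averaged 2.28 FPKM and was below Il4 in 14 of 18. Gata3, at 0.508 FPKM, was below Socs1 in 18 of 18 libraries, while Il13ra2, at 0.427 FPKM, was below Gata3 in only 12 of 18, so the order of that pair varied between libraries. Of the partners of IL-4Rα, Il13ra1 was above Il2rg in 18 of 18 libraries, by at least 2.10-fold.

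**Figure D1:**
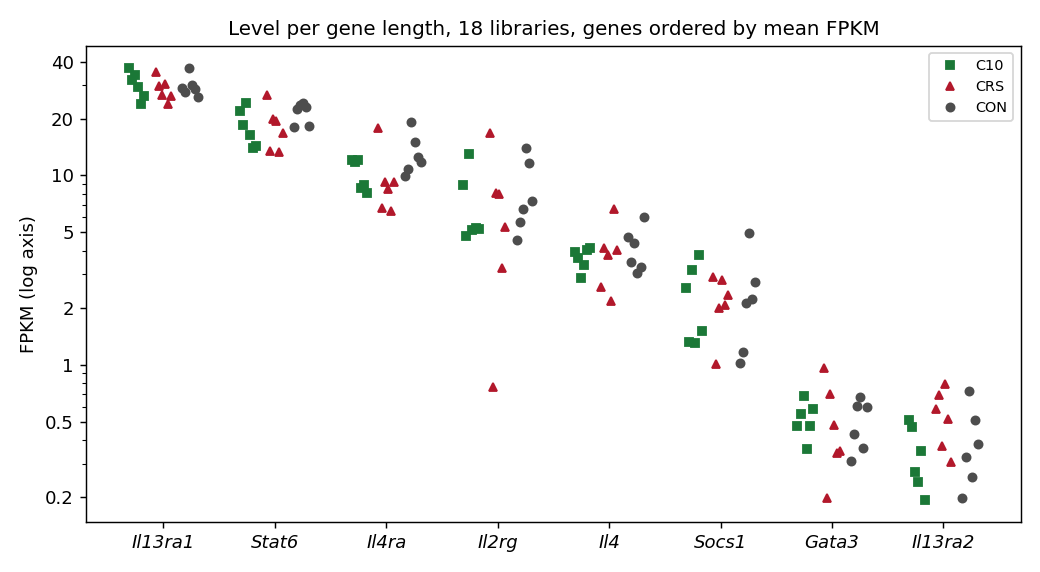
Level per gene length (FPKM, log axis) of the 8 genes in each of the 18 libraries, ordered by their mean, with 1 point per library and a colour and marker for C10, CRS and CON. Il13ra1, Stat6 and Il4ra stand at the top at 29.6, 19.3 and 11.1 FPKM, and Gata3 and Il13ra2 at the bottom at 0.508 and 0.427 FPKM.

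The balance between the receptor chains was described by ratios of their FPKM. The FPKM of Il13ra1 over that of Il2rg had a median of 4.79 in C10, 4.37 in CRS and 4.21 in CON. Its highest value, 39.1, was that of library CRS 2, and the other 17 libraries lay at or below 6.65. The FPKM of Il13ra1 over that of the decoy Il13ra2 had a median of 97.5 in C10, 53.0 in CRS and 77.0 in CON, and ran between 38.5 and 146 over all libraries. The FPKM of Il4ra over that of Il13ra1 had a median of 0.343 in C10, 0.315 in CRS and 0.445 in CON. These ratios are descriptions and were not tested.

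In papain-treated mucosa against control mucosa, none of the 8 genes passed the test. Among all 18291 genes, 1 gene (0.00547%) passed for CRS against CON (edgeR quasi-likelihood test, adjusted p under 0.05). None of the 8 reached an unadjusted p under 0.05 either, which 14.0% of all genes did, and DESeq2 called none of them. The median log2 fold change of the 8 was -0.11, with 2 higher and 6 lower in CRS, against 0.004 over all genes tested. In bulk mucosa, fewer cells of a type and less RNA per cell cannot be told apart.

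The cytokine gene Il4 (ENSMUSG00000000869, chromosome 11, 53602982 to 53618669, mm10) had 2.67 CPM in the lowest, 4.81 in the median and 8.34 in the highest CRS library, and 3.75, 4.87 and 7.48 CPM in CON. CRS libraries lay on both sides of the CON range. The fold of CRS over CON was 0.937 (95% interval 0.665 to 1.32, edgeR adjusted p = 0.883). Its counts, 46 to 138 per library, were far above those of its neighbours in the type 2 cytokine cluster: over all 18 libraries Il13 had 19 counts and Il5 had 18, against 1494 for Il4. The annotation lists a noncoding Il4 transcript that runs past the coding ones to 53602982, and the counts per gene cannot separate it.

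Il4ra (ENSMUSG00000030748, chromosome 7, 125552120 to 125579474), the chain shared by both receptors, came closest to the threshold. It had 39.8 CPM in the lowest, 53.1 in the median and 107 in the highest CRS library, and 60.2, 73.8 and 116 CPM in CON. Of the 6 CRS libraries, 5 lay below every CON library, while CRS 1 lay in the upper part of the CON range. The share of all genes with such a split, here and for the genes below, was not counted. By unadjusted p, Il4ra ranked 2578 among 18291 genes. The log2 fold change was -0.46 ± 0.22 (SE, n = 6 each; edgeR unadjusted p = 0.0502, adjusted p = 0.356). Without CRS 1, the highest remaining CRS library had 55.4 CPM and the log2 fold change was -0.72 ± 0.17 (edgeR adjusted p = 0.0257). That made Il4ra the only one of the 8 called, in a comparison where 5.39% of 18452 genes passed and 3.23% passed as lower in CRS, so Il4ra was 1 of 994 genes called without that library. Markers of fibroblasts moved with Il4ra: the summed level of the 6 fibroblast markers was 2021 to 7054 CPM in CRS and 3193 to 10645 CPM in CON, none of them was at 0, and all 6 were lower in CRS by the fit (median log2 fold change -0.54) with none called. All 5 endothelial markers were lower in CRS too (median log2 fold change -0.53), with none called. So were all 7 macrophage markers (median -0.41) and all 4 pan-leukocyte markers (median -0.27), with none called. All 6 respiratory epithelium, all 7 olfactory neuron and all 5 B and plasma cell markers were higher in CRS, with none called. The mean of the fibroblast markers, a covariate chosen after seeing the data, was then added to the fit. The Il4ra difference became -0.09 ± 0.11 with all libraries (edgeR adjusted p = 0.775) and -0.26 ± 0.11 without CRS 1 (adjusted p = 0.276). The call of Il4ra without CRS 1 did not hold there. In that fit 0 of 18452 genes passed, so the loss of the call is not particular to Il4ra. The covariate had r = 0.89 with Il4ra over the 18 libraries, and its markers were themselves lower in CRS. These fits therefore cannot show what the Il4ra difference came from, and its cause was not tested.

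With all libraries in the fit, the fold changes of the partner chains were nearer to 0 than that of Il4ra, and that of Il2rg was poorly resolved. Il13ra1 (ENSMUSG00000017057, chromosome X, 36112110 to 36171259) had 90.3, 105 and 131 CPM as lowest, median and highest in CRS, and 97.9, 108 and 140 CPM in CON. The groups overlapped over most of their range, and the fold was 0.960 (0.814 to 1.13, edgeR adjusted p = 0.843), the narrowest interval of the 8 genes. Il2rg (ENSMUSG00000031304, chromosome X, 101264378 to 101268255) had 1.86, 15.9 and 40.1 CPM in CRS, and 11.0, 16.9 and 33.5 CPM in CON. Both the lowest and the highest of all 18 Il2rg values were CRS libraries, CRS 2 and CRS 1, a 21.6-fold span within a single group. Its fold of 0.840 carried an interval of 0.424 to 1.67 (edgeR adjusted p = 0.838). Without CRS 1 the log2 difference of Il2rg was -0.72 ± 0.44 (edgeR adjusted p = 0.322), as large as that of Il4ra but with a larger standard error.

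The decoy receptor gene Il13ra2 (ENSMUSG00000031289, chromosome X, 147383476 to 147429192) had 0.702, 1.27 and 1.80 CPM in CRS, and 0.455, 0.810 and 1.68 CPM in CON. Of the 6 CRS libraries, 5 lay above the CON median, and the ranges overlapped. The fold was 1.35 (0.838 to 2.19, edgeR adjusted p = 0.565). With 7 to 31 counts per library the gene is near the limit of this depth: counting alone gives a spread of 21.9% in CRS and 24.6% in CON, against observed spreads of 34.1% and 48.8%.

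Stat6 (ENSMUSG00000002147, chromosome 10, 127642986 to 127660957), the factor that carries the signal to the nucleus, had 59.6, 79.5 and 117 CPM in CRS, and 80.2, 101 and 106 CPM in CON. Of the 6 CRS libraries, 5 lay below the CON median and CRS 1 lay above every CON library. The log2 fold change was -0.25 ± 0.16 (edgeR adjusted p = 0.504), and -0.39 ± 0.15 without CRS 1 (adjusted p = 0.120). Gata3 (ENSMUSG00000015619, chromosome 2, 9857078 to 9890034) had 0.804, 1.66 and 3.84 CPM in CRS, and 1.25, 2.06 and 2.70 CPM in CON, again with CRS 2 lowest and CRS 1 highest. Its fold was 1.01 (0.646 to 1.59, edgeR adjusted p = 0.985). Socs1 (ENSMUSG00000038037, chromosome 16, 10782240 to 10785536) had 2.97, 6.50 and 8.43 CPM in CRS, and 3.01, 6.38 and 14.5 CPM in CON. The ranges of Socs1 overlapped, and its fold was 0.917 (0.538 to 1.56, edgeR adjusted p = 0.902).

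**Figure D2:**
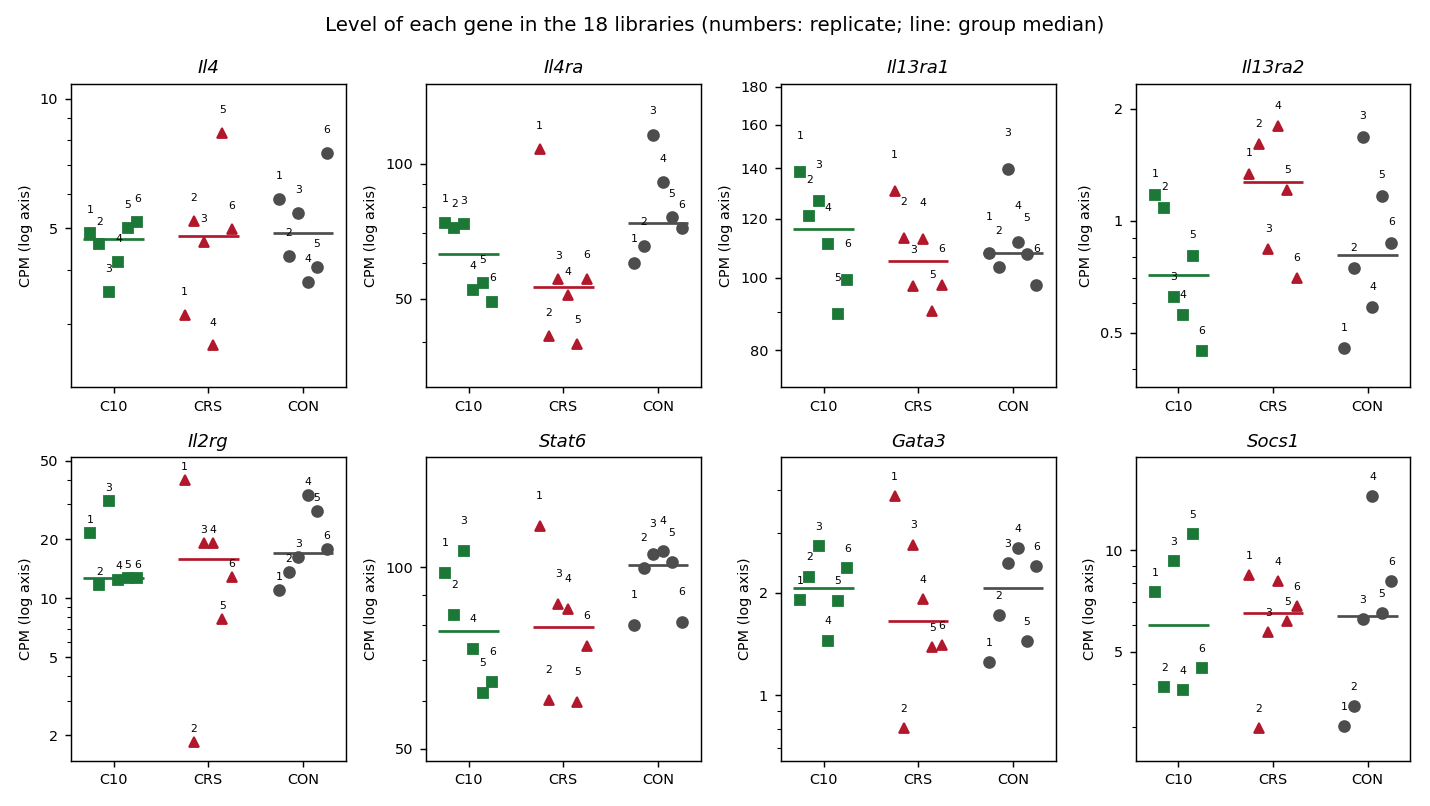
CPM (log axis) of the 8 genes in the 18 libraries, 1 panel per gene, with C10, CRS and CON side by side; numbers are replicates and lines are group medians. In the Il4ra panel 5 CRS libraries lie below all CON libraries and CRS 1 stands apart at 107 CPM, and in the Il2rg panel CRS 2 stands apart at 1.86 CPM.

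When the compound was given, none of the 8 genes passed the test against papain alone. For C10 against CRS, 15 of 18291 genes (0.0820%) passed by edgeR, 3 higher and 12 lower, and 13.2% had an unadjusted p under 0.05, a level that none of the 8 reached. DESeq2 called none of the 8. Their median log2 fold change was 0.04, with 6 higher and 2 lower, against 0.01 over all genes tested.

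The widest difference was in Il13ra2. It had 0.447 CPM in the lowest, 0.714 in the median and 1.18 in the highest C10 library, against 0.702, 1.27 and 1.80 CPM in CRS. All 6 C10 libraries lay below the CRS median and 3 of them lay below every CRS library, so the groups overlapped in part. The fold was 0.630 (0.387 to 1.02, edgeR unadjusted p = 0.0614, adjusted p = 0.406). Markers of squamous epithelium were lower too: the 5 summed to 12.5 to 29.3 CPM in C10 and 14.2 to 52.2 CPM in CRS. None was at 0, and 4 of 5 were lower in C10 by the fit, none called. All 6 respiratory epithelium markers were also lower in C10, none called. In CRS against CON the squamous markers did not go with Il13ra2: 4 of 5 were lower in CRS (median log2 fold change -0.68), while Il13ra2 was higher. The part of these markers in the Il13ra2 difference was not tested.

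Il4ra had 49.3, 63.0 and 73.7 CPM in C10, against 39.8, 53.1 and 107 CPM in CRS. The whole C10 range lay inside that of CRS, and the fold was 1.07 (0.780 to 1.47, edgeR adjusted p = 0.898). Without CRS 1 the log2 difference was 0.36 ± 0.17 (adjusted p = 0.281). Stat6 had 61.9, 78.2 and 106 CPM in C10 and a fold of 1.01 over CRS (0.795 to 1.28, edgeR adjusted p = 0.985). Il13ra1 had 89.4, 116 and 139 CPM in C10 and a fold of 1.07 over CRS (0.905 to 1.26, edgeR adjusted p = 0.784). The C10 and CRS ranges overlapped for all 3 of these genes.

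Il2rg had 11.7, 12.7 and 31.1 CPM in C10, all inside the CRS range, with a fold of 1.01 (0.510 to 2.01, edgeR adjusted p = 0.992). Il4 had 3.55, 4.73 and 5.17 CPM in C10, the tightest group of the 3 for this gene, with a fold of 0.945 over CRS (0.670 to 1.33, edgeR adjusted p = 0.926). The spread of Il4 within C10 was 13.3%, close to the 11.4% that counting alone gives, against 41.5% within CRS. Gata3 had 1.45, 2.07 and 2.74 CPM in C10, with a fold of 1.04 over CRS (0.660 to 1.63, edgeR adjusted p = 0.966). Socs1 had 3.84, 5.99 and 11.2 CPM in C10, with a fold of 1.05 over CRS (0.616 to 1.79, edgeR adjusted p = 0.961).

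Set against control mucosa, C10 mucosa also showed no member past the test, where 29 of 18291 genes (0.159%) passed by edgeR, 8 higher and 21 lower. None of the 8 had an unadjusted p under 0.05, against 13.1% of all genes, and DESeq2 called none of them. This comparison shares the CON libraries with the papain comparison and the C10 libraries with the compound comparison. The median log2 fold change of the 8 was -0.20, with 2 higher and 6 lower, against 0.01 over all genes tested.

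Il4ra again differed most: all 6 C10 libraries lay below the CON median of 73.8 CPM, and 3 lay below every CON library. Its fold was 0.781 (0.569 to 1.07, edgeR adjusted p = 0.495). Stat6 lay below the CON median of 101 CPM in 5 of 6 C10 libraries, with a fold of 0.848 (0.669 to 1.08, edgeR adjusted p = 0.549). The fibroblast markers summed to 2015 to 4516 CPM in C10 and 3193 to 10645 CPM in CON, all 6 lower in C10 by the fit, with none called. All 5 endothelial markers were lower in C10 too (median log2 fold change -0.54), with none called. So were all 7 macrophage markers (median -0.90) and all 4 pan-leukocyte markers (median -0.34), with none called. An unadjusted edgeR p under 0.05 was reached by 5 of 6 fibroblast, 3 of 5 endothelial and 5 of 7 macrophage markers. The share over all genes was 13.1%. All 7 olfactory neuron markers and all 5 B and plasma cell markers were higher in C10, with none called. With the fibroblast markers in the fit, the log2 difference was 0.15 ± 0.12 for Il4ra and 0.12 ± 0.09 for Stat6, on the other side of 0. That covariate was chosen after seeing the data. It had r = 0.89 with Il4ra and 0.91 with Stat6 over the same 18 libraries, and its markers were themselves lower in C10. This fit therefore cannot show what the differences came from, and their cause was not tested. The other 6 genes had folds of 0.852 to 1.05 in C10 over CON, with edgeR adjusted p of 0.788 or more.

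**Figure D3:**
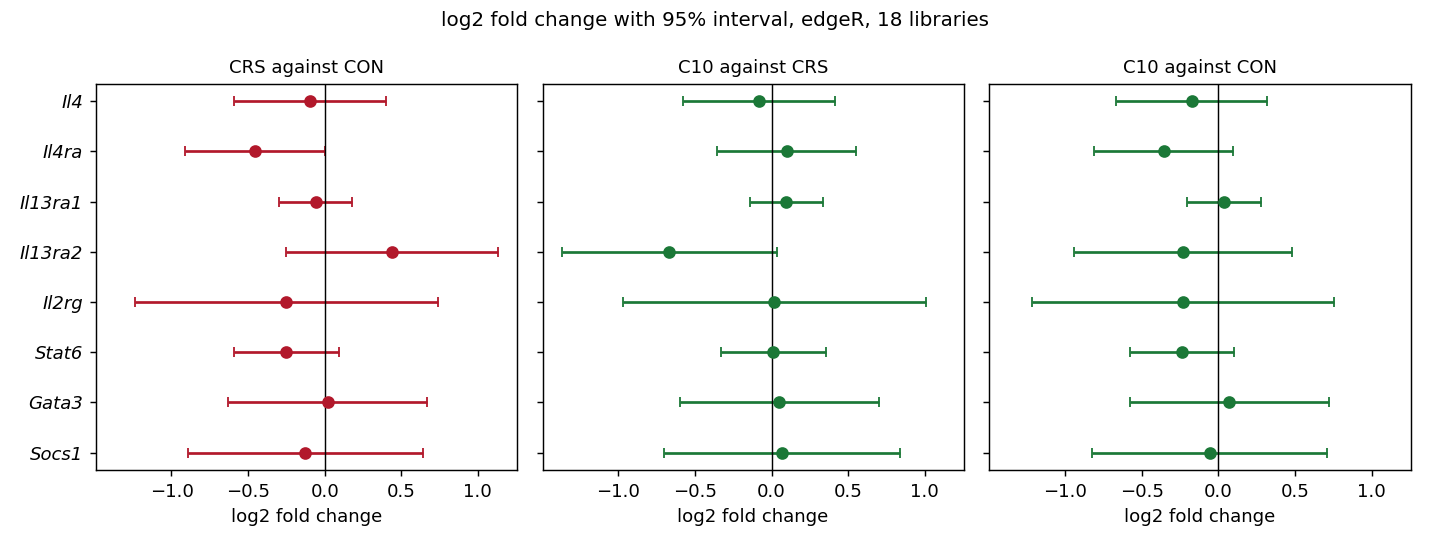
Log2 fold changes of the 8 genes with 95% intervals from edgeR in the 3 comparisons, 6 libraries a group. Most intervals span 0 widely; the interval of Il4ra in CRS against CON, from 0.532 to 1.00 as a fold, only just reaches it, and Il13ra2 in C10 against CRS, from 0.387 to 1.02, lies nearly all below.

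In the rest of the pathway, a single gene was called among the lists examined beside the 8. Of 15 tested genes of the receptor's kinases, adaptors, phosphatases and other inhibitors, none was called in any comparison. Socs2, a feedback inhibitor of cytokine signalling, had log2 fold changes of 0.27 ± 0.12 in CRS against CON (edgeR adjusted p = 0.333) and 0.42 ± 0.12 in C10 against CON (adjusted p = 0.167). Irs2, the adaptor through which IL-4 receptors reach insulin-type signalling, had -0.25 ± 0.08 in C10 against CRS (edgeR adjusted p = 0.212) and -0.27 ± 0.08 in C10 against CON (adjusted p = 0.193). Jak1, the kinase bound to IL-4Rα, had -0.17 ± 0.10 in CRS against CON (edgeR adjusted p = 0.456).

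Of 20 tested genes known as STAT6 targets, none was called in any comparison; 9 were higher and 11 lower in CRS against CON, 8 higher and 12 lower in C10 against CRS, and 11 higher and 9 lower in C10 against CON. An unadjusted p under 0.05 was reached by 3 of the 20 (15.0%) in CRS against CON, by 3 in C10 against CRS and by 7 (35.0%) in C10 against CON, beside 14.0%, 13.2% and 13.1% of all genes tested. The smallest p in CRS against CON was that of Chil4, a chitinase-like protein of alternatively activated macrophages and airway epithelium. It had 13.3 CPM in the lowest, 37.6 in the median and 527 in the highest C10 library, 17.4, 224 and 2016 CPM in CRS, and 0.176, 1.78 and 22.0 CPM in CON. Its log2 fold change was 6.65 ± 1.49 in CRS against CON (edgeR adjusted p = 0.206) and 5.24 ± 1.40 in C10 against CON (adjusted p = 0.138). Chil3 and Chil4 are close copies, and how reads were split between them is not known. Muc5ac, the gel-forming mucin of goblet cells, had 238, 1131 and 1532 CPM in C10, 82.5, 275 and 465 CPM in CRS, and 361, 397 and 899 CPM in CON. Its log2 fold change was 1.74 ± 0.43 in C10 against CRS (edgeR adjusted p = 0.109), 0.92 ± 0.43 in C10 against CON (adjusted p = 0.365) and -0.83 ± 0.43 in CRS against CON (adjusted p = 0.395). Itln1, an epithelial lectin, had a log2 fold change of 1.09 ± 0.26 in C10 against CRS (edgeR adjusted p = 0.106).

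The called gene was Il33, an alarm cytokine stored in epithelial and endothelial nuclei that acts on innate lymphoid cells upstream of interleukin 13. It had 113, 127 and 133 CPM as lowest, median and highest in C10, 70.5, 78.7 and 85.9 CPM in CRS, and 75.7, 90.5 and 110 CPM in CON. C10 libraries lay above every library of both other groups, a separation whose share among all genes was not counted. Its log2 fold change was 0.68 ± 0.09 in C10 against CRS (edgeR adjusted p = 0.00233) and 0.47 ± 0.09 in C10 against CON (adjusted p = 0.0327), while that of CRS against CON was -0.22 ± 0.09 (adjusted p = 0.281). It was 1 of 4 tested genes in its list of initiating cytokines and their receptors.

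Other cytokines of that list, and Il13 from other lists, were too low to test. Summed over the 6 libraries of a group, Il13 had 4 counts in C10, 14 in CRS and 1 in CON. Il5 had 2 counts in C10, 13 in CRS and 3 in CON, and Il9 had 0 counts in C10, 1 in CRS and 0 in CON. Il25 had 46 counts in C10, 41 in CRS and 25 in CON, and Tslp had 23, 29 and 29. Most Il13 counts, 12 of 19, came from CRS 2, the library lowest in Il2rg and pan-leukocyte markers. The other 17 libraries had at most 2 Il13 counts each, under the floor of 3 counts, which equals 0.163 to 0.193 CPM, so Il13 was not detectable in them at this depth. The 6 other receptors and chains that use the common gamma chain, the 6 other STAT genes, the 8 lymphocyte fate factors and the 3 tested neighbours of Il4 on its chromosome held no called gene in any comparison. Nfil3, a factor needed for innate lymphoid cells, had the smallest p among them, with a log2 fold change of -0.92 ± 0.19 in C10 against CON (edgeR adjusted p = 0.0723) and -0.58 ± 0.19 in C10 against CRS (adjusted p = 0.196).

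Within a group, the highest library was 1.33-fold (Stat6 in CON) to 21.6-fold (Il2rg in CRS) above the lowest, and the 8 genes varied together in a few patterns. Of the 28 pairs among them, 11 correlated over the 18 libraries at an adjusted p under 0.05 by Pearson (permutation test with 100000 resamples, Benjamini-Hochberg over the 28), 10 of them positively. Il4ra and Stat6 varied together, with r = 0.87 and rho = 0.87 over 18 libraries (permutation p = 1e-05 for each, the smallest these resamples can give; adjusted p = 0.00014 and 0.00028). Within groups r was 0.90 in C10, 0.93 in CRS and 0.68 in CON, and it was 0.81 without CRS 2 and CRS 5, the libraries farthest from the median. Il4ra also correlated with Il2rg, with r = 0.70 and rho = 0.70 (permutation p = 0.00107 and 0.00164, adjusted p = 0.00749 and 0.00918). With Il13ra1 it had r = 0.67 and rho = 0.57 (permutation p = 0.00279 and 0.0149, adjusted p = 0.0114 and 0.0416). Il4 went the other way from Stat6, with r = -0.55 and rho = -0.64 (permutation p = 0.0169 and 0.00552, adjusted p = 0.0431 and 0.0193), and within groups r was -0.65 in C10, -0.77 in CRS and -0.80 in CON. Without CRS 2 and CRS 5 it was -0.42. Il13ra1 and Il13ra2 had r = 0.38 and rho = 0.36 (permutation p = 0.122 and 0.141, adjusted p = 0.229 and 0.219), which did not pass.

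**Figure D4:**
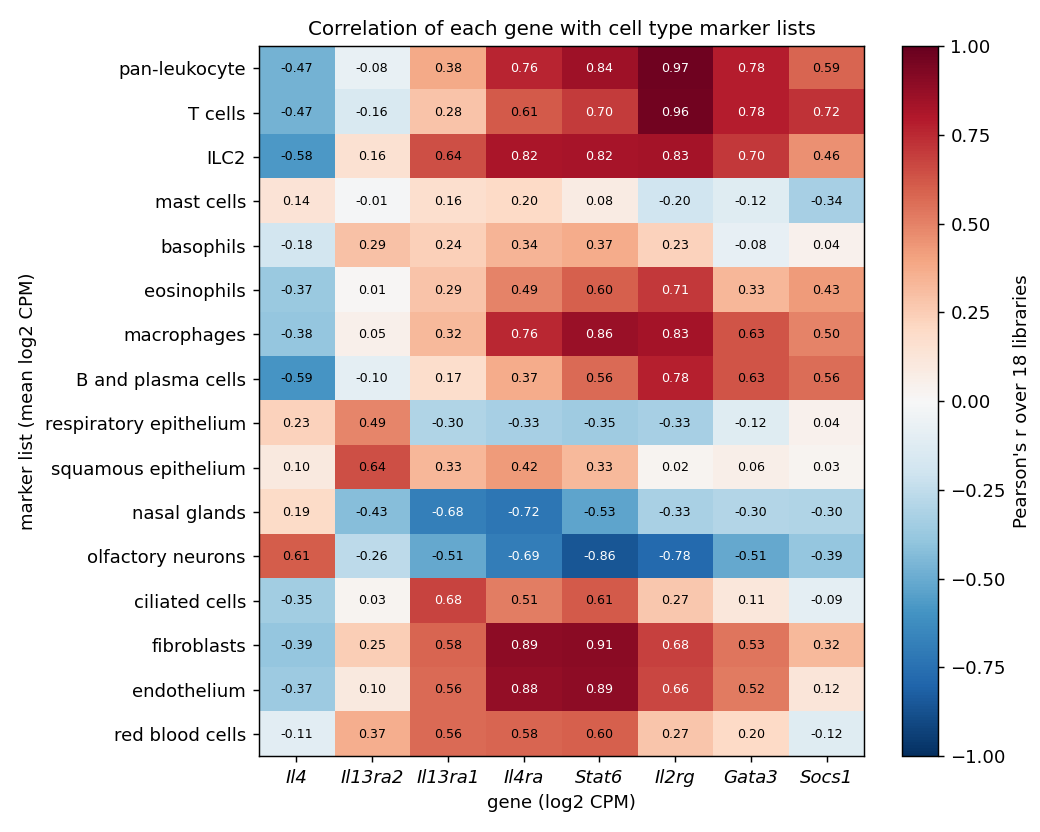
Pearson's r, over 18 libraries, of log2 CPM of each of the 8 genes (columns) with the mean log2 CPM of each cell type marker list (rows). Il2rg is strongest with pan-leukocyte markers (0.97). Stat6 and Il4ra are positive with fibroblasts (0.91 and 0.89) and endothelium (0.89 and 0.88) and negative with olfactory neurons (-0.86 and -0.69). Il4 is positive with olfactory neurons (0.61).

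The genes also followed cell type markers, several of them the same lists, in 128 relations between a gene and a marker list. Of these, 40 passed by both coefficients after adjustment. Il2rg followed the pan-leukocyte markers Ptprc, Cd53, Coro1a and Laptm5, with r = 0.97 and rho = 0.95 (permutation p = 1e-05 for each, adjusted p = 0.000142 and 0.00016). Within groups r was 0.92 in C10, 0.98 in CRS and 0.97 in CON, and it was 0.94 without CRS 1 and CRS 2. Those libraries were the extremes of the markers too: the 4 summed to 901 CPM in CRS 1 and 92.8 CPM in CRS 2, against 280 to 619 CPM in C10 and 306 to 733 CPM in CON. With the mean of these markers in the fit, the Il2rg log2 difference of CRS against CON was 0.05 ± 0.14 in place of -0.25 ± 0.47. Since that covariate had r = 0.97 with Il2rg over the same libraries, this fit cannot show why Il2rg varied. Il2rg also followed other lists, each passing by both coefficients. Its r was 0.96 with T cell, 0.83 with macrophage, 0.68 with fibroblast and 0.66 with endothelial markers. With olfactory neuron markers it was -0.78.

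Stat6 and Il4ra followed the markers of several cell types, with the highest r for fibroblasts and endothelium close behind. With the endothelial list (Pecam1, Cdh5, Kdr, Tek, Tie1) Stat6 had r = 0.89 and rho = 0.85, and Il4ra had r = 0.88 and rho = 0.87. For all 4 values the permutation p was 1e-05, with adjusted p = 0.000142 for r and 0.00016 for rho. Stat6 with the fibroblast list (Col1a1, Col1a2, Col3a1, Pdgfra, Dcn, Lum) had r = 0.91 and rho = 0.94 (permutation p = 1e-05 for each, adjusted p = 0.000142 and 0.00016), with 0.93 in C10, 0.98 in CRS and 0.78 in CON, and 0.94 without CON 3 and CON 5. Il4ra with the same list had r = 0.89 and rho = 0.87 (permutation p = 1e-05 for each, adjusted p = 0.000142 and 0.00016), with 0.92 in C10, 0.94 in CRS and 0.81 in CON, and 0.89 without CON 3 and CON 5. Both also followed leukocyte markers. With the pan-leukocyte list Stat6 had r = 0.84 and rho = 0.89 (permutation p = 1e-05 for each, adjusted p = 0.000142 and 0.00016), with 0.84 in C10, 0.93 in CRS and 0.67 in CON, and 0.83 without CRS 1 and CRS 2. Il4ra had r = 0.76 and rho = 0.76 with that list (permutation p = 0.00016 and 0.00043, adjusted p = 0.0012 and 0.00306), with 0.71 in C10, 0.81 in CRS and 0.60 in CON, and 0.68 without the same libraries. Against the markers of olfactory neurons, Stat6 had r = -0.86 and rho = -0.90 (permutation p = 1e-05 for each, adjusted p = 0.000142 and 0.00016), with -0.99 in C10, -0.97 in CRS and -0.74 in CON, and -0.89 without CON 5 and CRS 1. Il4ra against the same list had r = -0.69 and rho = -0.76 (permutation p = 0.00157 and 0.00035, adjusted p = 0.00773 and 0.00264), with -0.89 in C10, -0.84 in CRS and -0.42 in CON, and -0.68 without CON 5 and CRS 1. Libraries with higher levels of olfactory neuron markers had lower levels of both.

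Il4 had the opposite sign. With the olfactory neuron list (Omp, Cnga2, Gnal, Adcy3, Ano2, Cnga4, Stoml3) it had r = 0.61 and rho = 0.66 (permutation p = 0.00785 and 0.00386, adjusted p = 0.0272 and 0.0182), with 0.56 in C10, 0.74 in CRS and 0.69 in CON, and 0.58 without CON 5 and CRS 1. With the markers of cells known to make the cytokine, Il4 had no positive relation that passed. With mast cell markers r was 0.14 and rho 0.18 (permutation p = 0.580 and 0.470, adjusted p = 0.701 and 0.584), and with basophil markers r was -0.18 and rho -0.24 (permutation p = 0.428 and 0.340, adjusted p = 0.556 and 0.484). With T cell markers r was -0.47 (permutation p = 0.0514, adjusted p = 0.113) and rho -0.62 (permutation p = 0.00712, adjusted p = 0.0285). With the markers of group 2 innate lymphoid cells the relation was inverse and passed: r was -0.58 and rho -0.62 (permutation p = 0.0122 and 0.0078, adjusted p = 0.0362 and 0.0294), with -0.69 in C10, -0.78 in CRS and -0.27 in CON, and -0.54 without CRS 1 and CRS 2. The basophil markers Mcpt8, Prss34 and Cd200r3 had only 24, 37 and 31 counts over all 18 libraries, so that list is a poor measure here. The mast cell list is limited too: Kit had 14586 counts over the 18 libraries, while its other markers had from 50 (Fcer1a) to 238 (Tpsb2). In the list of group 2 innate lymphoid cells, counts ran from 304 (Klrg1) and 436 (Areg) to 7512 (Il1rl1). That list had r = 0.82 with both Il4ra and Stat6, and how well it measures those cells here was not tested.

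**Figure D5:**
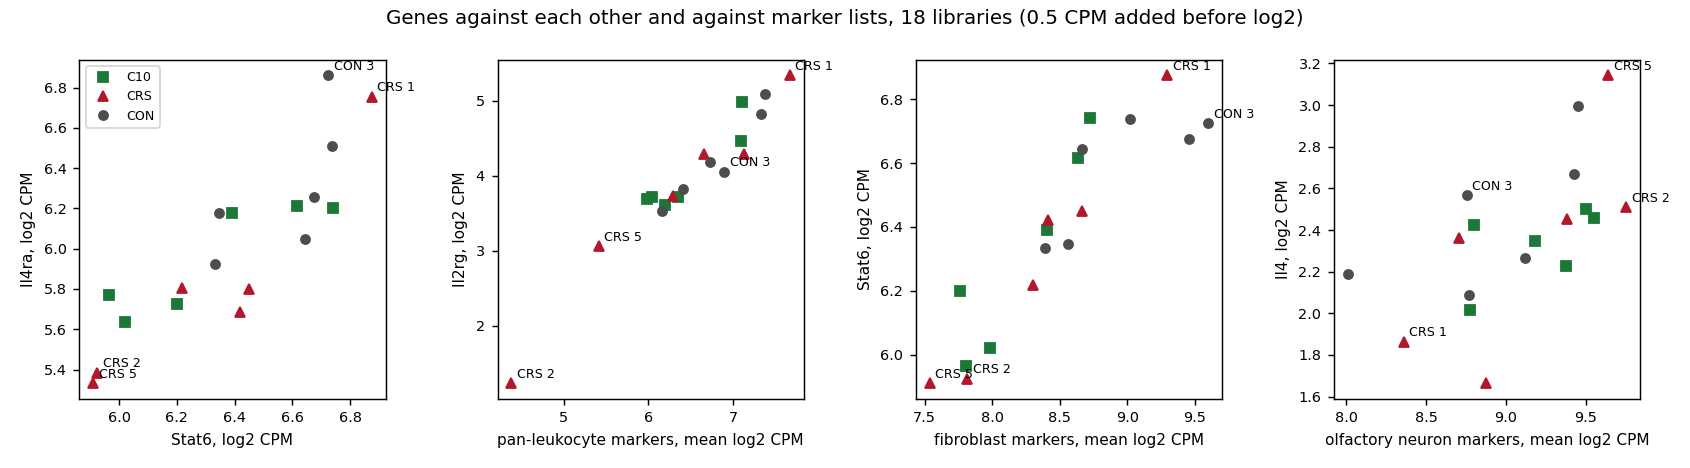
Log2 CPM (0.5 CPM added) of Il4ra, Il2rg, Stat6 and Il4 against another of the genes or the mean of a marker list, 1 point per library, with markers and colours for C10, CRS and CON. Il4ra and Stat6 (r = 0.87) lie along a line in all 3 groups, while Il4 against olfactory neuron markers (r = 0.61) scatters more widely.

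Gata3 and Socs1 followed T cell markers, but not those alone. With T cell markers Gata3 had r = 0.78 and rho = 0.68 (permutation p = 0.00016 and 0.00233, adjusted p = 0.0012 and 0.0124), and r was 0.58 without CRS 1 and CRS 2, so those libraries carry much of it. Within groups r was 0.44 in C10, 0.94 in CRS and 0.52 in CON. With pan-leukocyte markers Gata3 had r = 0.78 and rho = 0.75 (permutation p = 0.00017 and 0.00057, adjusted p = 0.00121 and 0.00365). Its relations with the markers of group 2 innate lymphoid cells, macrophages and B and plasma cells passed too. With T cell markers Socs1 had r = 0.72 and rho = 0.74 (permutation p = 0.00049 and 0.0005, adjusted p = 0.00314 and 0.00337), with 0.69 in C10, 0.89 in CRS and 0.88 in CON, and 0.68 without CRS 1 and CRS 2. With pan-leukocyte markers Socs1 had r = 0.59 and rho = 0.57 (permutation p = 0.00921 and 0.0145, adjusted p = 0.0302 and 0.0412). Il13ra2 followed the squamous markers, with r = 0.64 and rho = 0.66 (permutation p = 0.00247 and 0.00413, adjusted p = 0.0109 and 0.0182), and r was 0.51 without C10 6 and CON 3. Within groups it was 0.80 in C10, 0.54 in CRS and 0.88 in CON. Il13ra1 followed ciliated cell markers, with r = 0.68 and rho = 0.61 (permutation p = 0.00207 and 0.0086, adjusted p = 0.00946 and 0.0306), with 0.88 in C10, 0.27 in CRS and 0.67 in CON, and 0.52 without C10 5 and CRS 5. It also followed the markers of group 2 innate lymphoid cells, with r = 0.64 and rho = 0.65 (permutation p = 0.00394 and 0.00413, adjusted p = 0.0163 and 0.0182). There r was 0.75 without CRS 1 and CRS 2.

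Among 15858 named genes, those whose log2 CPM was most like each of the 8 over the 18 libraries were found by Pearson's r, as a description. For Il2rg they were Arhgap45 (0.98), Ptprc (0.97) and Cd86 (0.97). For Stat6 they were Adgre5 (0.98), Emp2 (0.97) and Pxn (0.96), and for Il4ra Crispld2 (0.96), Rnf149 (0.96) and Ifnar1 (0.95). For Socs1 they were Mx1 (0.90), Cxcl10 (0.88) and Psme1 (0.87), all known as interferon-induced genes. For Gata3 they were Ramp3 (0.89), Bcl2a1a (0.88) and Adgrg5 (0.86), and for Il13ra1 Slk (0.87), Fam167a (0.86) and Rasa2 (0.86). For Il4 they were Mon1a (0.83), Hcn2 (0.82) and Map3k10 (0.81), and for Il13ra2 Klhl33 (0.77), Dynap (0.75) and Zfp764 (0.73), the weakest of the 8 sets.

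Few bases of the 8 genes are shared with an expressed gene. Stat6 shares 40 exon bases, 0.909% of its 4402, with Nab2 on the opposite strand, which had 267 to 552 counts per library. The kit is not stated to keep the strand, so reads of that stretch cannot be assigned.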

How the data were processed

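The authors deposited unnormalized read counts for each gene of poly(A) RNA from nasal mucosa. The build was mm10, per the submitters' processing notes; how reads were aligned and counted is not given in the sources used here. FPKM values, deposited by the authors too, derive from those counts, since count over length and FPKM keep 1 ratio within a column; they served for levels per length and as an alternative. No column was left without a library. In R 4.3.3, edgeR 4.0.16 removed genes of low count (filterByExpr by group), computed TMM factors and ran two-sided quasi-likelihood tests on all 18 libraries with 1 mean per group, adjusted by Benjamini-Hochberg over 18291 genes and called under 0.05. The standard error is the log2 fold change over the square root of F. Correlations used log2 of CPM plus 0.5 in Python 3.11.15 with scipy 1.17.1, with 100000 permutations. The other tools were limma 3.58.1 and DESeq2 1.42.0. The scripts were tested on simulated data. Named beside the 8 genes were, per list and comparison, all called genes or else the 2 of smallest p, and the 3 genes most like each of the 8. The genes, lists, tests and alternatives were chosen with earlier results of these data known. Promoter windows are RefSeq's for GRCm38.p6, the same build as mm10, and coordinates of the 8 genes in the table equal those of GENCODE M21. The 95% intervals of folds are edgeR's and include the spread between libraries; the floor of 3 counts covers counting error only. The protocol also describes cell cultures stimulated with interleukin 13, which were not analysed here.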

Additional observations from a re-analysis of the deposited data

Results flagged for a closer look

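In 3 of the 24 groups examined (8 genes in 3 groups of 6 libraries), 1 library stood far from the others by Dixon's test on log2 CPM; chance alone gives such a value in about 1 of 20 groups. Il4ra had 107 CPM in CRS 1, where the other CRS libraries reached at most 55.4 CPM. Socs1 had 2.97 CPM in CRS 2, the library that was also lowest for Il2rg and Gata3. Il13ra1 had 140 CPM in CON 3, the highest of all 18 libraries.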

How the results depend on the processing

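No alternative but leaving out CRS 1 called any of the 8 genes, and none of the fold changes was called under an alternative that turned its sign (smallest adjusted p among those 0.485). The numbers of all genes called did move, while the 8 genes stayed uncalled. For CRS against CON (1 gene) it was 3 with at least 1 CPM in 6 libraries, 2 with the olfactory neuron covariate, 0 with only the 2 groups compared, 179 by DESeq2, 2 by limma on FPKM plus 1 or plus 0.1, and 0 with the fibroblast covariate, with or without CRS 1. For C10 against CRS (15 genes) it was 23 with that filter, 541 with the olfactory, 681 with the pan-leukocyte and 365 with the fibroblast covariate, 487 with the last and CRS 1 left out, 9 with only the 2 groups, 350 by DESeq2, 23 by limma on FPKM plus 1 and 100 without CRS 2 and CRS 5. For C10 against CON (29 genes) it was 17 without a filter, 269 with the olfactory and 192 with the pan-leukocyte covariate, 14 with the fibroblast covariate and CRS 1 left out, 161 with only the 2 groups, 318 by DESeq2 and 74 without CRS 2 and CRS 5. The causes were not tested. The fibroblast covariate was chosen after seeing the data.

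Leaving out 1 library at a time gave 0 to 994 genes for CRS against CON, where the number of the 8 called was 0 to 1 (Il4ra without CRS 1), 7 to 81 for C10 against CRS and 3 to 110 for C10 against CON. Log2 fold changes that changed sign under it ranged, in CRS against CON, from -0.31 to 0.042 for Il4, -0.12 to 0.016 for Il13ra1, -0.27 to 0.19 for Gata3 and -0.28 to 0.22 for Socs1. In C10 against CRS they ranged from -0.21 to 0.13 for Il4, -0.0052 to 0.36 for Il4ra, -0.24 to 0.49 for Il2rg, -0.081 to 0.15 for Stat6, -0.12 to 0.34 for Gata3 and -0.15 to 0.18 for Socs1. In C10 against CON they ranged from -0.026 to 0.11 for Il13ra1, -0.38 to 0.031 for Il13ra2, -0.033 to 0.17 for Gata3 and -0.27 to 0.29 for Socs1.

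Other changes of sign were these. In CRS against CON the fibroblast covariate gave 0.11 for Il13ra1, 0.26 for Il2rg, 0.033 for Stat6 and 0.12 for Socs1, and without CRS 1 as well 0.10 for Il13ra1, 0.082 for Il2rg and 0.11 for Socs1. In C10 against CON it gave 0.15 for Il4ra, 0.11 for Il13ra2, 0.66 for Il2rg, 0.12 for Stat6 and 0.26 for Socs1, and without CRS 1 as well 0.054, 0.22, 0.56, 0.10 and 0.25 for the same genes. The pan-leukocyte covariate gave 0.046 for Il2rg and 0.19 for Socs1 in CRS against CON, 0.018 for Il4, -0.035 for Stat6 and -0.0027 for Socs1 in C10 against CRS, and 0.19 for both Il2rg and Socs1 in C10 against CON. The olfactory covariate gave 0.12 for Il2rg and 0.088 for Socs1 in C10 against CON. Without CRS 2 and CRS 5, Il2rg was at 0.19 and Socs1 at 0.074 in CRS against CON, and in C10 against CRS Il4 was at 0.22, Il4ra at -0.12, Il2rg at -0.43, Stat6 at -0.18, Gata3 at -0.26 and Socs1 at -0.14. Stat6 in C10 against CRS, 0.01 in the fit reported, was -0.00076 by DESeq2, -0.00077 with RLE factors, -0.0019 without a filter and -0.00022 with only the 2 groups. Limma gave -0.0043 (FPKM plus 1) and -0.062 (FPKM plus 0.1) for Gata3 in CRS against CON, and 0.0043 (FPKM plus 0.1) for Socs1 in C10 against CON.

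Pairing of libraries by replicate number is not stated in the labels, and correlations of same-numbered deviations did not settle it. They ran from -0.62 to 0.23 for CRS against CON and from -0.23 to 0.56 for C10 against CRS. For C10 against CON they ran from -0.45 to 0.21. In these comparisons 1, 3 and 0 of 6 libraries correlated best with their own number. The replicate block gave 0 genes for CRS against CON, 13 for C10 against CRS and 12 for C10 against CON, 0 of the 8 genes in each, and turned Gata3 to -0.052 in CRS against CON and Socs1 to 0.018 in C10 against CON. Depth limits mainly Il13ra2, at 7 to 31 counts a library, and Gata3, at 13 to 66.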

Other observations

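Some known STAT6 target genes were too low to test, and their counts summed over the 6 libraries of a group are given as values. Retnla, a secreted product of alternatively activated macrophages and airway epithelium, had 5 counts in C10, 55 in CRS and 0 in CON, and 28 of them came from a single library. Clca1, a goblet cell gene, had 272 counts in C10, 52 in CRS and 6 in CON, and 219 of the C10 counts came from a single library. Ccl24, a chemokine for eosinophils, had 2 counts in C10, 24 in CRS and 16 in CON. Il5ra, the receptor chain of eosinophils and B cells, had 23 counts in C10, 5 in CRS and 9 in CON.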
